A study of Mus musculus with 186 samples.

Results

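Oxidative phosphorylation is carried out by 5 protein complexes of the inner mitochondrial membrane, most of whose subunits are encoded in the nucleus. The genes were taken from a table of mouse single-cell RNA-seq by their names, which begin with Nduf, Sdh, Uqcr, Cox or Atp5 followed by the letters of a subunit. The patterns matched 95 row names, of which 87 remained without names marked as pseudogenes or opposite-strand transcripts. A gene was kept when it reached 1 TPM (transcripts scaled to a fixed total per cell) in 25% of the cells of at least 1 group, and 81 genes passed, of the 11680 genes that passed the same filter and were tested. Complex I contributed 37 genes, complex II 4, complex III 8, complex IV 15 and complex V 17. The 6 names that failed were Atp5o.1, Cox7b2, Cox8b, Cox8c, Ndufa11b and Ndufa4l2. Ndufa4 was placed with complex IV, where its protein is now known to sit. In the GENCODE annotation used for positions, 3 of the 81, namely Cox6c2, Ndufs6b and Ndufb4c, are processed pseudogenes.

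Complexes I and II pass electrons from NADH and succinate to ubiquinone, complex III passes them on to cytochrome c, and complex IV reduces oxygen. Complexes I, III and IV pump protons, and complex V, the ATP synthase, uses the gradient to make ATP. Before implantation the mouse embryo moves from a metabolism based largely on pyruvate and lactate towards one with more glycolysis and respiration, and the inner cell mass, the cells that will form the epiblast and the primitive endoderm, arises during that time.

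The cells came from CD-1 embryos of natural matings, and their inner cells were isolated by immunosurgery, in which outer cells are lysed. Freshly collected embryos gave 3 groups by age, E3.25 (19 cells), E3.75 (22 cells) and E4.0 (14 cells), each from 2 experiments. Morulae of E2.75 were kept in KSOM medium for 16 or 24 h. The medium held either the vehicle DMSO or LY294002 (LY below) at 10 µM, a compound that blocks the lipid kinase PI3K. These gave DMSO at 16 h (31 cells), LY at 16 h (31 cells), DMSO at 24 h (28 cells) and LY at 24 h (24 cells), each from 3 experiments. The labels name no genetic change in any group. LY294002 is also known to inhibit other kinases, and cultured cells differ from fresh ones in both time and medium. An experiment, meaning the cells of 1 group collected on 1 date from several litters, was the unit of replication, and each held 3 to 18 cells. Levels are means over cells of log2(TPM + 1). Pou5f1, Nanog, Gata6 and Sox2, markers of inner cells, summed to between 223 and 1411 TPM per experiment, and every cell had 1 of them at 10 TPM or more. A list of 12 markers of outer cells summed to between 85.4 and 1029 TPM, highest in 1 DMSO experiment at 16 h.

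A pair of experiments stood apart in the levels of the 81 genes, and the medians, counts and main genes of each comparison that uses them are also given without them. The median level over the 81 genes was 5.44 in E3.25 experiment 2 and 4.85 in experiment 1 of LY at 24 h, and between 6.80 and 8.21 in the other 16 experiments. Cells of those experiments had on average 66.5 and 58.7 of the 81 genes at 1 TPM or more, against 69.6 to 79.7 elsewhere. LY at 24 h experiment 1 also had the fewest genes detected per cell of all experiments (mean 4556 of all genes), whereas E3.25 experiment 2 (6078) lay within the range of the others (5373 to 9995). Of the 81 genes, 31 had their lowest level in the LY experiment and 19 in the E3.25 experiment. The summed share of TPM did not show this, being 3.91% and 4.46% in the 2 experiments and 3.03% to 5.87% in the others. Several of the most abundant members, such as Cox6a1, Cox5a and Atp5b, did not stand low in these experiments.

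**Figure D1:**
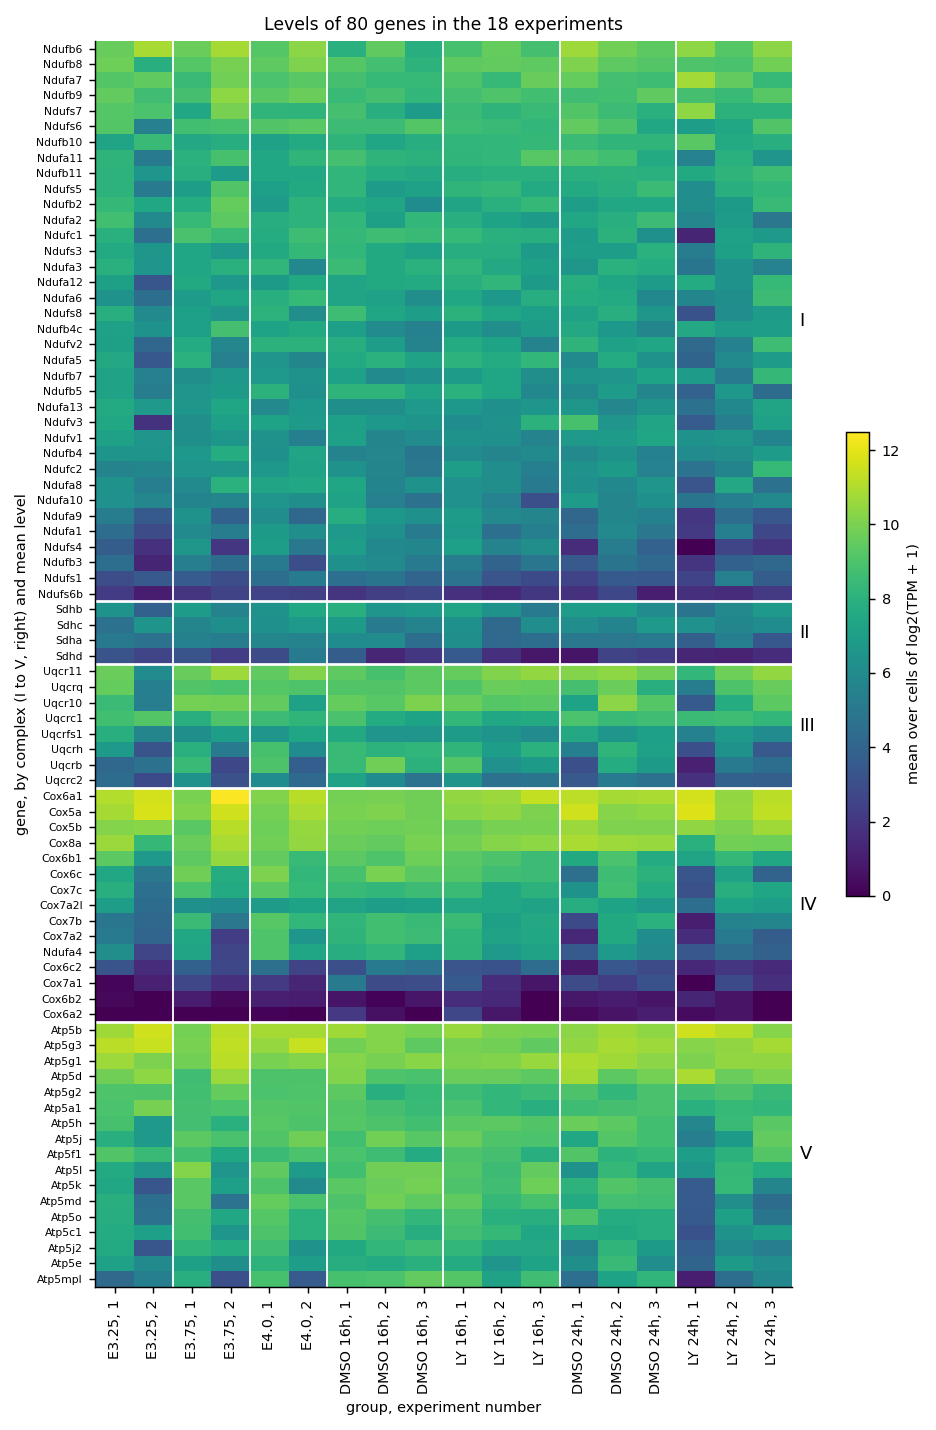
Level of 80 of the 81 genes (rows, grouped by complex I to V and ordered by mean level) in each of the 18 experiments (columns, grouped by stage or treatment). Color gives the mean over cells of log2(TPM + 1). The 2 darkest columns are E3.25 experiment 2 and LY at 24 h experiment 1, whose medians were 5.44 and 4.85, while the top rows of complexes IV and V stay bright in them.

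The most abundant transcripts belonged to the electron-accepting end of the chain and to the ATP synthase. Levels of different genes were set side by side in TPM, which divides by transcript length. The mean over groups was 2463 for Cox6a1, 2256 for Cox5a and 1404 for Cox5b, which are structural subunits of complex IV. In complex V it was 1883 for Atp5b, the catalytic beta chain, 1817 for Atp5g3 and 1514 for Atp5g1. Complex III was led by Uqcr11 (1236), Uqcr10 (897) and Uqcrq (708), all small accessory subunits, and complex I by the accessory subunits Ndufb6 (1235), Ndufb8 (851) and Ndufa7 (772). By contrast the members of complex II, the one complex of the chain that is also an enzyme of the citrate cycle, stayed low. Sdhb, its iron-sulfur subunit, averaged 141 TPM, the membrane anchor Sdhc 94.5, the flavoprotein Sdha 70.8 and the other anchor Sdhd 11.6. Summed over members, the median experiment had 12420 TPM for complex V, 10360 for complex I, 10300 for complex IV, 4076 for complex III and 313 for complex II. Per member this was 730 TPM in complex V, 687 in complex IV, 510 in complex III, 280 in complex I and 78.3 in complex II. The median annotated RNA lengths were 714, 610, 541, 763 and 2066 bases in the same order. Reverse transcription was from the 3′ end, and the part of RNA length in these rankings was not tested.

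Subunits that work side by side in 1 enzyme differed widely in transcript level. In the catalytic core of complex I, Ndufs7 averaged 525 TPM, Ndufs8 254, Ndufs3 252, Ndufv2 209, Ndufv1 123 and Ndufs1 28.3. Ndufs1 encodes the largest of these subunits, which carries several iron-sulfur clusters, and it was the lowest of those listed. Its annotated RNA, of 2590 bases, was also the longest of those listed, and the part of length was not tested. In complex III the core protein gene Uqcrc1 (419 TPM) stood above the Rieske iron-sulfur protein gene Uqcrfs1 (169) and the second core protein gene Uqcrc2 (61.7). In the F1 head of complex V, Atp5b (1883) and Atp5d, the delta chain (1152), stood above Atp5a1, the alpha chain (530), Atp5c1, the gamma chain (340), and Atp5e, the epsilon chain (239). The alpha and beta chains are present in equal numbers in the enzyme. The genes Atp5g1, Atp5g2 and Atp5g3 all encode the same mature c subunit of the membrane ring, and their levels were 1514, 525 and 1817 TPM.

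Where complex IV has tissue-restricted isoforms, the widely expressed isoform of subunits 6a, 6b and 8 was the main one. The experiment means of Cox6a1 ran from 929 to 6165 TPM, whereas Cox6a2, the heart and muscle isoform, averaged 2.17 TPM and was listed at 0 in all E3.25 and E3.75 cells. The highest experiment mean for Cox6a2 was 18.7 TPM, in LY at 16 h experiment 1. Cox6b1 averaged 711 TPM and its testis isoform Cox6b2 averaged 4.37. Cox8a averaged 1376 TPM, while Cox8b, the muscle form, was listed at 0 in every cell, and Cox8c, a testis form, reached 1 TPM in at most 12.9% of the cells of a group. Ndufa4l2, a paralog of Ndufa4 known to be induced in low oxygen, did so in at most 7.14%.

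Cox7a1, the heart and muscle form of subunit 7a, was detected more widely than the other restricted isoforms and varied between experiments. It reached 1 TPM in 74.2% of the cells of DMSO at 16 h and in 15.8% of E3.25 cells. Its experiment means were 0.341 and 9.32 TPM at E3.25, 41.4 and 15.5 at E3.75, and 9.29 and 4.07 at E4.0. In DMSO they were 33.4, 37.01 and 72.5 TPM at 16 h and 98.2, 19.3 and 55.2 at 24 h. In LY they were 26.5, 4.52 and 3.69 TPM at 16 h, and 0, 27.02 and 7.88 at 24 h. Fresh and cultured cells overlapped on this scale. Those of Cox7a2, the widely expressed form, were 310, 498 and 460 TPM in DMSO at 16 h, above Cox7a1 in each experiment of that group. In DMSO at 24 h experiment 1 the order was the reverse, with 12.6 TPM for Cox7a2.

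Nearby sequence was examined in the promoters of 66 members found in the RefSeq promoter table (build GRCm38.p6, 250 bases before to 50 after each start). Nuclear respiratory factor 1, ETS-family factors and YY1 are known regulators of respiratory chain genes. The letters CGCATGCG (NRF1), CCGGAAG (ETS) and AAGATGGC (YY1) were searched on both strands, and none of the 3 words contains another. NRF1 letters were present in 9 of the 66 (13.6%) and in 2.77% of all 17492 genes with promoters, ETS letters in 17 (25.8%) and 12.9%, and YY1 letters in 10 (15.2%) and 3.57%. At least 1 of them was present in 30 members (45.5%) and in 17.8% of all genes. The YY1 letters were in 7 promoters of complex I and 3 of complex V, and in none of the 3, 5 and 12 promoters of complexes II, III and IV. The NRF1 letters were in 2 of complex I, 2 of complex III, 1 of complex IV and 4 of complex V. The YY1 letters contain ATG. In all 7 genes of complex I they lay 22 to 38 bases after the start, on the strand of the gene. In complex V they lay at -88, -3 and 23. Whether any of these matches is a start of translation was not tested. A match is only a description of the letters.

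Windows of 30 bases are printed 5′ to 3′ on the strand of the gene, with the matched letters in capitals, for genes whose levels are described here. Positions are 1-based on GRCm38.p6.
Uqcr11, NRF1, chr10:80406808-80406837, minus strand: gatcgccttcaCGCATGCGctatacgtctg
Cox6a1, NRF1, chr5:115349101-115349130, minus strand: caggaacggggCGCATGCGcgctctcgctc
Atp5k, NRF1, chr5:108434430-108434459, minus strand: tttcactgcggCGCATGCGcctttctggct
Ndufb6, ETS on the other strand, chr4:40279635-40279664, minus strand: tcgtccttgttCTTCCGGtcccctccccta
Sdhb, ETS, chr4:140961266-140961295, plus strand: gctcggagaaaCCGGAAGcggccttccact
Cox8a, ETS on the other strand, chr19:7217603-7217632, minus strand: tttccgaaataCTTCCGGctcgggcgtccg
Atp5md, ETS on the other strand, chr19:47090627-47090656, minus strand: ggagggggcgtCTTCCGGtcgggccgagct
Ndufb8, YY1, chr19:44555393-44555422, minus strand: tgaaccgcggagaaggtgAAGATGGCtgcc
Ndufs7, YY1, chr10:80249462-80249491, plus strand: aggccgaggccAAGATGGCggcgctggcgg

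The first comparison asked how the 81 genes differ between inner cells of successive ages. The E3.75 and E4.0 comparisons below share groups with each other, and the culture comparisons share E3.25 and E3.75 with them, so their values are given side by side and not as independent results. From E3.25 to E3.75, 62 of 81 members had a higher mean (median difference 0.66 on the log2(TPM + 1) scale), while the median over all genes was -0.09. None passed an adjusted p of 0.05 in limma, the linear model fitted to all genes (Benjamini-Hochberg, background 0% of all genes). At an unadjusted p under 0.05 stood 5 members, all higher (6.17% of 81, background 4.59%). Complex III had the highest median difference (1.32), followed by complex I (0.75), complex IV (0.56), complex II (0.44) and complex V (0.27). Without E3.25 experiment 2, described next, the same medians were 0.04, 0.02, 0.06, 0.07 and -0.05, and no complex stood apart.

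Uqcr11 (chr10:80402997-80406830, minus strand, protein coding) shows what lay behind this. Its levels were 9.65 and 6.04 at E3.25, against 9.59 and 10.65 at E3.75. Only E3.25 experiment 2 was low, and the other E3.25 experiment lay between the E3.75 values. The difference was 2.28 (SE 0.86, unadjusted p = 0.0155, adjusted p = 1), and without E3.25 experiment 2 it was 0.47. The outer-cell marker list summed to 308 and 329 TPM at E3.25, against 85.4 to 120 TPM at E3.75 and 94.2 to 106 TPM at E4.0, and its part in the differences from E3.25 was not tested. Over all members the median difference without that experiment was 0.03, with 43 of 81 higher and no member at an unadjusted p under 0.05 (background without the low experiments 2.93%), so the difference between E3.25 and E3.75 rested on 1 experiment.

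Between E3.75 and E4.0 the members moved no more than genes in general. The median difference was 0.24 with 48 of 81 higher, beside 0.29 over all genes. None was called by limma (background 1.41%), and 1 was at an unadjusted p under 0.05 (1.23%, background 9.49%). That gene was Ndufa4 (chr6:11900292-11907497), with 7.32 and 2.59 at E3.75 and 9.05 and 7.41 at E4.0, a difference of 3.28 (SE 1.27, unadjusted p = 0.0173, adjusted p = 0.342). The 2 groups did not overlap, but the second E3.75 experiment was far below the first. Sdhd had the largest difference in complex II, 1.24 (SE 0.96), where all 4 genes were higher.

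From E3.25 to E4.0 the median difference was 0.92 and 62 of 81 were higher, beside 0.20 over all genes. None was called (background 1.67%), and 12 members, all higher, were at an unadjusted p under 0.05 (14.8%, background 12.9%). Of these, 4 were in complex IV, 4 in complex I, 3 in complex V and 1 in complex III. Ndufa4 had levels of 6.16 and 2.63 at E3.25 and the E4.0 values above, with no overlap, and a difference of 3.84 (SE 1.27, unadjusted p = 0.00648, adjusted p = 0.164). Cox7b, a small complex IV subunit on chromosome X, stood at 4.93 and 4.22 against 9.23 and 8.26, a difference of 4.17 (SE 1.49, adjusted p = 0.205). Atp5md, a small membrane subunit of the ATP synthase also known as DAPIT (chr19:47083464-47090647, minus strand), stood at 7.87 and 4.51 against 9.57 and 8.92, and Ndufa6, an accessory subunit of complex I, at 6.35 and 4.53 against 7.84 and 8.397. In each of these genes both E3.25 experiments lay below both E4.0 experiments. The genes were named for their small p or after their values were seen, so this separation is not independent of that choice. The share of all genes separated in this way is not given here.

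E3.25 experiment 2 again set the size of the result. Without it the members' median difference was 0.10, with 47 of 81 higher and 1 member, Cox7b, at an unadjusted p under 0.05 (1.23%, background 8.36%). The difference was 3.82 for Cox7b, 2.08 for Ndufa4 (adjusted p = 0.813), 1.77 for Ndufa6 and 1.38 for Atp5md. Without E3.25 experiment 1 instead, 4 members (4.94%, background 1.09%) passed the adjusted threshold, namely Uqcr11, Ndufa12, Ndufv3 and Ndufs6. In the cells of sequencing run 2 alone 7 passed (8.64%, background 3.29%), all higher at E4.0, namely Ndufa4, Cox7b, Cox6c, Ndufs4, Atp5md, Uqcrb and Cox7a2 (differences of 4.27 to 6.01), whereas in run 1 none did. E4.0 experiment 2 held only 2 cells in run 2, with 31.7% and 32.5% of TPM from mitochondrially encoded genes. Its cells in run 1 had 1.20% to 3.19%. The members' median difference was 0.69 in run 1 and 0.78 in run 2.

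**Figure D2:**
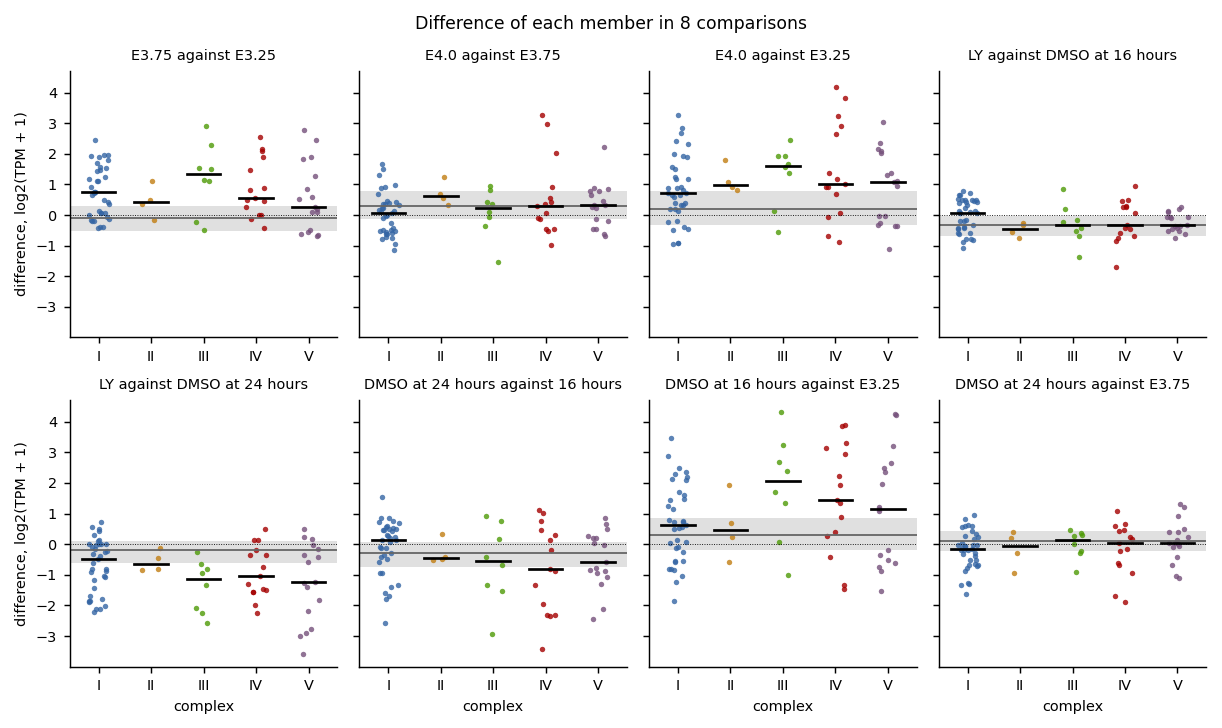
Difference of each member on the log2(TPM + 1) scale in 8 comparisons (panels), by complex, with the first-named group minus the second. Black bars are medians of each complex, and the grey line and band are the median and the middle 50% of all 11680 genes. Members spread on both sides of 0 in each panel, and the panels with the highest medians are those against E3.25.

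The second comparison asked what PI3K inhibition changed. After 16 h the members were close to the vehicle. The median LY minus DMSO difference was -0.19 with 34 of 81 higher, beside -0.33 over all genes, and the sign of the members' median changed to 0.06 without DMSO experiment 1, which held 3 cells. No member was called (background 0%), and 1 was at an unadjusted p under 0.05 (1.23%, background 5.49%). With the date as a block 2 were (2.47%, background under the block 12.1%). Complex I stood at 0.07, complex V at -0.32, complex III at -0.32, complex IV at -0.34 and complex II at -0.44. Since LY and DMSO experiments shared 3 dates, they could also be compared date by date. LY was lower on all 3 dates in 17 members (21%, background 35.7%) and higher on all 3 in 12 (14.8%, background 5.34%).

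The member with the smallest p at 16 h was Cox7a1, with DMSO levels of 5.09, 2.902 and 2.95 and LY levels of 3.53, 1.59 and 0.76. LY was lower on each date (LY minus DMSO -1.56, -1.31 and -2.19), though the first LY experiment lay above 2 DMSO experiments. The difference was -1.69 (SE 0.80, unadjusted p = 0.0462, adjusted p = 0.854). Cox6a1, the subunit with the highest transcript level, had the largest difference in the other direction (0.94), with DMSO at 9.89, 9.94 and 9.79 and LY at 10.48, 10.60 and 11.36, so that all LY experiments exceeded all DMSO experiments. It did not pass the unadjusted threshold. The separation was noted after the values were seen, and the share of all genes separated in this way is not given here.

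After 24 h most members had lower means with LY. The median difference was -0.80, and 65 of 81 were lower, beside a median of -0.20 over all genes. The members' summed share of TPM did not show this, with means of 4.12% in DMSO and 4.09% in LY. Summed TPM was higher with LY in complexes I (12560 against 11750) and IV (11690 against 10810). It was lower with LY in complexes II, III and V. Genes detected per cell were also fewer with LY on each date (4556 against 5726, 6389 against 6668, and 5373 against 6969). A repeat with genes detected as a covariate is among those described at the end, and it called no member. Beyond that repeat, their part in the difference was not tested. No member was called (background 0%, smallest adjusted p 0.899), while 15 were at an unadjusted p under 0.05, all lower (18.5%, background 5.27%). With the date as a block, 27 members were at an unadjusted p under 0.05 (33.3%, background under the block 11.4%) and none passed after adjustment (smallest adjusted p 0.153). LY was lower on all 3 dates in 28 members (34.6%, background 22.4%) and higher on all 3 in 3 (3.7%, background 6.33%). By complex the medians were -1.23 in complex V, -1.14 in complex III, -1.03 in complex IV, -0.63 in complex II and -0.47 in complex I, and all 4 members of complex II and all 8 of complex III had lower means. Without LY experiment 1 these medians were -0.38, -0.52, -0.44, -0.37 and -0.15, so that complex V no longer stood lowest. The DMSO experiment of the same date was kept in that fit. With that DMSO experiment left out instead, the medians were -1.19, -1.32, -1.24, -0.77 and -0.53. In complex V 8 of 17 genes were lower on all dates, in complex IV 6 of 15, in complex III 3 of 8, in complex I 11 of 37 and in complex II 0 of 4.

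Atp5md had the smallest p of all members in this comparison. Its DMSO levels at 24 h were 7.64, 8.75 and 8.65, and its LY levels were 3.63, 6.18 and 4.43, so each LY experiment lay below each DMSO experiment. The difference was -3.60 (SE 0.94, 95% interval -5.55 to -1.65, unadjusted p = 9.6e-04, adjusted p = 0.899), and -3.04 without LY experiment 1. All cells of the DMSO experiments had Atp5md at 1 TPM or more, and 42.9%, 75% and 60% of the LY cells did. At 16 h the same gene stood at 8.999, 9.82 and 9.39 with DMSO and 9.45, 8.35 and 8.84 with LY, and these overlapped.

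Atp5o, the stalk subunit also called OSCP, stood at 8.99, 7.72 and 7.79 with DMSO and at 3.53, 7.12 and 4.88 with LY, a difference of -2.99 (SE 0.82, adjusted p = 0.899). Its LY values were all below its DMSO values too, but the second LY experiment was close, and without the first the difference was -2.17. Atp5c1 stood at 7.69, 7.61 and 7.77 with DMSO and 3.15, 6.35 and 7.01 with LY (-2.18, and -1.01 without LY experiment 1). Ndufa2, a complex I accessory subunit, was at 7.46, 7.88 and 8.58 with DMSO and 5.78, 6.88 and 4.97 with LY, with no overlap and a difference of -2.10 that stayed at -2.05 without LY experiment 1. Uqcrh, the hinge protein of complex III, had 5.40, 8.16 and 7.13 with DMSO and 3.04, 6.41 and 3.51 with LY. The groups overlapped, but LY was lower on each date (-2.36, -1.74 and -3.62). Atp5md, Atp5o and Ndufa2 were named for their small p or after their values were seen. The lack of overlap in them is not independent of that choice. The share of all genes whose LY and DMSO groups do not overlap at 24 h is not given here.

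Other members did not follow. Atp5b stood at 10.35, 10.73 and 10.38 with DMSO and 11.60, 11.14 and 10.25 with LY, and Cox5a at 11.58, 10.21 and 10.39 against 11.84, 10.52 and 11.32. Ndufs1 had the highest difference of all members (0.72). By date Atp5b differed by 1.26, 0.41 and -0.13, and its mean difference of 0.51 was 0.21 without LY experiment 1. The inhibitor of the ATP synthase, Atpif1, which the name patterns do not match, stood at 7.59, 8.59 and 8.62 with DMSO and 7.27, 7.15 and 7.03 with LY, a difference of -1.12 (SE 0.71, adjusted p = 0.912) with no overlap.

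LY at 24 h experiment 1 enlarged these values. Without it the members' median difference was -0.33 with 62 of 81 lower, and 4 members were at an unadjusted p under 0.05 (background with the 2 low experiments left out, 2.68%). The DMSO experiment of the same date was kept in that fit. With that DMSO experiment left out instead, the members' median was -0.77. Date by date, the members' medians were -1.63, -0.64 and -0.19, beside -0.17, -0.00 and -0.39 over all genes. On the third date the members' median was closer to 0 than that of all genes, and this difference was not tested. Within sequencing run 1 and run 2 the members' median was -0.72 and -0.57. This split left few cells in some experiments, with a lone cell of LY experiment 3 in run 1.

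**Figure D3:**
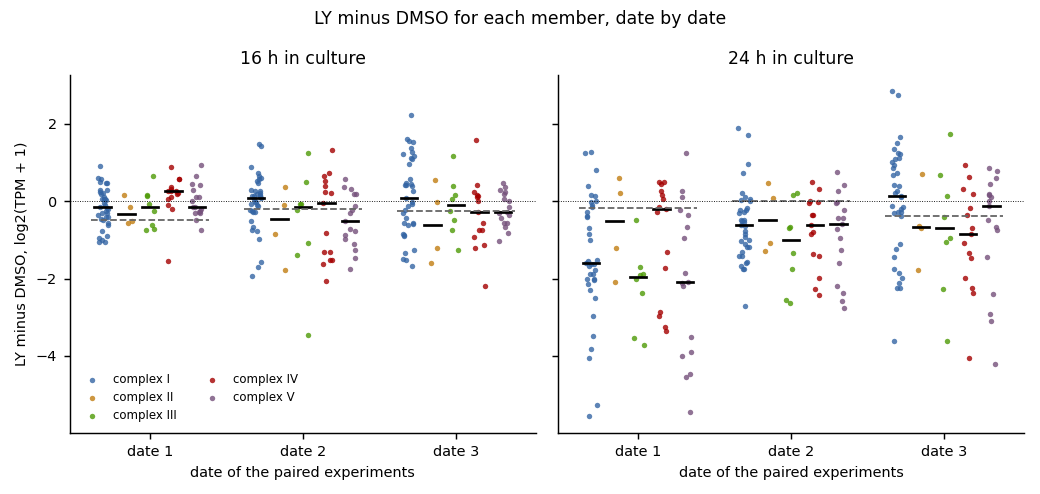
LY minus DMSO for each member on each of the 3 shared dates, at 16 h (left) and 24 h (right), by complex (colors), on the log2(TPM + 1) scale. Black bars are complex medians and dashed lines are medians of all genes on that date. At 24 h the members' medians were -1.63, -0.64 and -0.19, and the widest spread is on date 1.

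Whether the LY effect itself differed between the 2 culture times was tested as an interaction. The median over members was -0.61, with 65 of 81 more negative at 24 h, beside 0.10 over all genes. No member was called (background 0%), and 3 were at an unadjusted p under 0.05 (3.7%, background 2.49%), namely Cox8a, Atp5md and Atp5o. With the date as a block 10 members were (12.3%, background under the block 6.05%), and none was called. Cox8a, the widely expressed form of subunit 8 (chr19:7215153-7217616, minus strand), had DMSO and LY levels of 9.66, 9.52 and 9.98 against 9.84, 10.25 and 10.40 at 16 h, and of 10.90, 10.68 and 10.59 against 7.93, 9.84 and 9.73 at 24 h. Without LY at 24 h experiment 1 the members' median interaction was -0.18, computed without E3.25 experiment 2 as well.

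The third comparison concerned culture itself. Between 16 and 24 h in DMSO the members' median was -0.11 with 38 of 81 higher, beside -0.29 over all genes, but the members split. None was called (background 0.00856%), and 10 were at an unadjusted p under 0.05, 9 of them lower (12.3%, background 10.9%). The lower ones were Cox7a2, Cox6c, Cox6c2, Cox6b1 and Ndufa4 in complex IV, Ndufs4, Ndufb5 and Ndufa9 in complex I, and Atp5l in complex V. Cox7a2 stood at 8.11, 8.72 and 8.55 at 16 h and 1.42, 7.57 and 6.08 at 24 h, a difference of -3.43 (SE 1.29, adjusted p = 0.378), with the first 24 h experiment far below the others. Without that experiment the difference of Cox7a2 was -1.63, and no member was at an unadjusted p under 0.05 (background 5.26%), so these counts rested on it. Ndufb6 was the 1 higher member, at 7.95, 9.45 and 7.84 against 10.66, 9.85 and 9.36 (1.54, SE 0.59, adjusted p = 0.381, and 1.19 without 24 h experiment 1).

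Cells cultured for 16 h were also compared with fresh E3.25 cells, and those cultured for 24 h with fresh E3.75 cells. Against E3.25 the members' median was 0.88 with 57 of 81 higher, beside 0.32 over all genes, and none was called (background 0.0514%). The members' summed share of TPM went the other way, with means of 4.01% at E3.25 and 3.14% in DMSO at 16 h. As a share of the TPM of nuclear genes alone it was 4.325% and 3.601%. At an unadjusted p under 0.05 were 29 members, 25 higher and 4 lower (35.8%, background 13.7%). The 4 lower ones, Atp5g3, Ndufb6, Cox6a1 and Cox5a, are all among the 9 genes with the highest levels. In each of them E3.25 experiment 2 stood above the other E3.25 experiment, by 0.25, 1.27, 0.58 and 0.94, which enlarged their differences. Atp5k, the e subunit of the ATP synthase, had the smallest p, with 7.48 and 3.35 at E3.25 and 9.30, 9.66 and 9.90 in DMSO (4.21, SE 1.17, adjusted p = 0.186). Without E3.25 experiment 2 the members' median was 0.10 and its difference 2.14, and with the other low experiment also left out 5 members were at an unadjusted p under 0.05 (6.17%, background 7.07%).

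Cox7a1 kept its difference against E3.25 under that omission, with levels of 0.22 and 1.16 at E3.25 against 5.09, 2.902 and 2.95 in DMSO at 16 h (2.96, SE 0.89, adjusted p = 0.214) and a difference of 3.42 without E3.25 experiment 2. When only these 2 groups were fitted, 4 members were called (4.94%, background 0.42%), Atp5mpl, Cox7a2, Cox7b and Uqcrb, all higher in culture. Without E3.25 experiment 1 there were 3 (3.7%, background 0.445%), Atp5j2, Atp5k and Ndufa12. Against E3.75 the cells cultured for 24 h had a members' median of -0.03 with 38 of 81 higher, beside 0.10 over all genes. None was called (background 0%), and 2 were at an unadjusted p under 0.05, both lower (2.47%, background 3.17%). These were Cox6b1, at 9.38 and 10.52 in E3.75 and 7.59, 8.94 and 7.68 in culture (-1.88, SE 0.70), and Ndufb4 (-1.30, SE 0.61).

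The members that stood low together were then sorted by features that their selection had not used. In E3.25 experiment 2, 27 members were more than 2 units below experiment 1, and in LY at 24 h experiment 1, 28 were more than 2 units below the mean of the other LY experiments. These were 33.3% and 34.6% of the members, beside 4.91% and 6.19% of all genes. The 13 genes in both sets (48.1% and 46.4% of them, 16.05% of members beside 1.75% of all genes) were Ndufa5, Ndufb3, Ndufc1, Ndufv2 and Ndufv3 of complex I, Uqcr10 and Uqcrq of complex III, Cox6c, Cox7a2l and Cox7c of complex IV, and Atp5h, Atp5k and Atp5o of complex V. Uqcrq differed by -4.18 and -4.03, and Ndufc1 by -3.39 and -5.64. In 10 genes (12.3%, all genes 19.3%) both experiments stood higher instead, among them Atp5b (0.87 and 0.91), Cox5a (0.94 and 0.92) and Cox6a1 (0.58 and 0.82). The median level of all genes was 1.60 in E3.25 experiment 1, so most could not fall by 2 units. Both experiments were picked for the members' low levels. Among other genes with levels like the members' and RNAs of 500 to 700 bases, 30 and 25 of 63 fell by more than 2 units. Of the 25 members of that length, 11 and 6 did. At 1000 to 2000 bases it was 86 and 92 of 662 other genes, and 7 and 9 of 21 members.

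Transcript length went along with part of this in genes at large. The protocol recovered cDNA above 500 bp, and 15 of the 81 members have an annotated RNA shorter than that (median over members 704 bases, range 231 to 3171). In genes outside the set with mean levels like the members', the median difference of E3.25 experiment 2 was -1.61 for RNAs up to 500 bases, -1.84 for 500 to 700, -0.80 for 700 to 1000, -0.06 for 1000 to 2000 and 0.31 above. In LY at 24 h experiment 1 the medians were -1.93, -1.35, -0.82, -0.55 and -0.27. Members followed this less closely, with -1.60 and -1.84 in the 21 genes of 1000 to 2000 bases. The part of RNA length in the members' values was not tested.

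**Figure D4:**
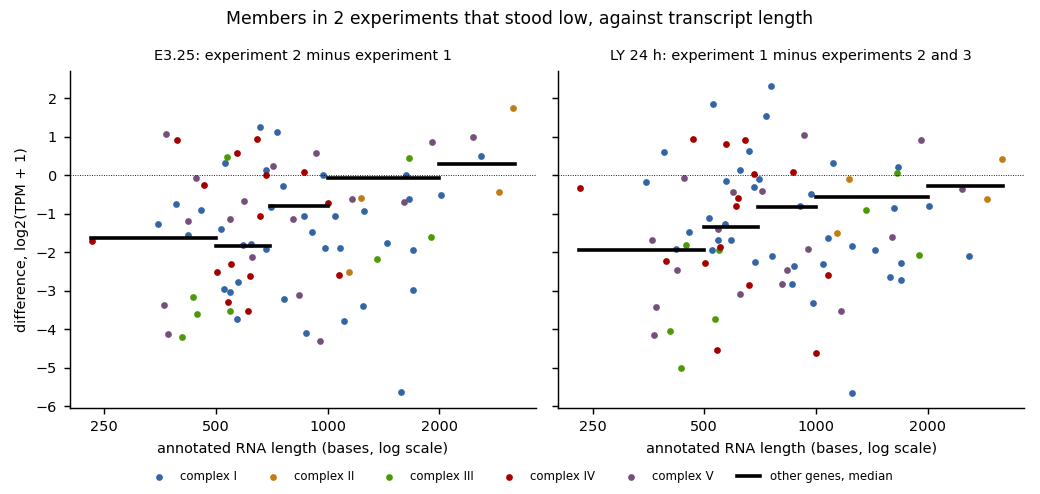
Difference of each member in E3.25 experiment 2 (left) and LY at 24 h experiment 1 (right) from the other experiments of its group, on the log2(TPM + 1) scale, against the annotated RNA length on a log axis. Points are members colored by complex, and black bars are medians of other genes with similar levels in length classes, which run from -1.61 for the shortest to 0.31 for the longest on the left and from -1.93 to -0.27 on the right. Members lie both above and far below the bars at most lengths.

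The members were also divided by GC content, a split chosen after their values were seen. The GC content of the transcripts ran from 41.96% in Ndufv2 and Cox7b to 61.12% in Atp5d, with a median of 51.75%, and the medians of the complexes lay between 49.1% and 52.9%. Between 16 and 24 h in DMSO the 41 members at or under the median had a median difference of -0.82, with 27 lower and 14 higher, and the 40 above it had 0.23, with 16 lower and 24 higher. Other genes with similar levels showed -0.40 and 0.14 under the same division, and without DMSO at 24 h experiment 1 the members stood at -0.55 and 0.18. Against E3.25, DMSO at 16 h stood at 1.44 in the lower-GC and 0.51 in the higher-GC genes, and E4.0 at 1.17 and 0.70. Without E3.25 experiment 2 these were 0.49 and -0.39, and 0.29 and -0.01. With LY at 16 h the same sets stood at -0.39 and 0.09, and with LY at 24 h at -1.07 and -0.43, which became -0.44 and -0.24 without LY experiment 1. Other genes were hardly separated with LY at 24 h (-0.42 and -0.35), and in the interaction the members were not either (-0.65 and -0.56).

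The same division moved with how much of the TPM came from mitochondrially encoded genes, whose transcripts are AT-rich. That share was lowest in DMSO at 24 h experiment 1 (1.55%), where the lower-GC genes, by the median deviation from each gene's mean over experiments, differed from the higher-GC genes by -0.83. It was 14.3% in DMSO at 16 h experiment 2, where the difference was 1.18. In E3.75 the experiments had 16.1% and 4.54%, with gaps of 0.84 and -0.48. The 5 experiments with a share below 6% all had gaps below 0, from -1.11 to -0.12, and the 6 above 12% all had gaps above 0, from 0.17 to 1.18. In the 7 between, the gaps ran from -0.80 (LY at 24 h experiment 3, 7.63%) to 0.45, with E3.25 experiment 2 at -0.66 (10.9%). These limits on the share were set after the values were seen. The genes that varied most between experiments of 1 group, Uqcrb (SD 2.31), Atp5mpl (2.09), Cox7a2 (2.02) and Cox7b (1.89), had 42.2%, 42.9%, 51.9% and 41.96% GC, so that Cox7a2 was not among the lower-GC genes. The part of base composition in any comparison was not tested.

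**Figure D5:**
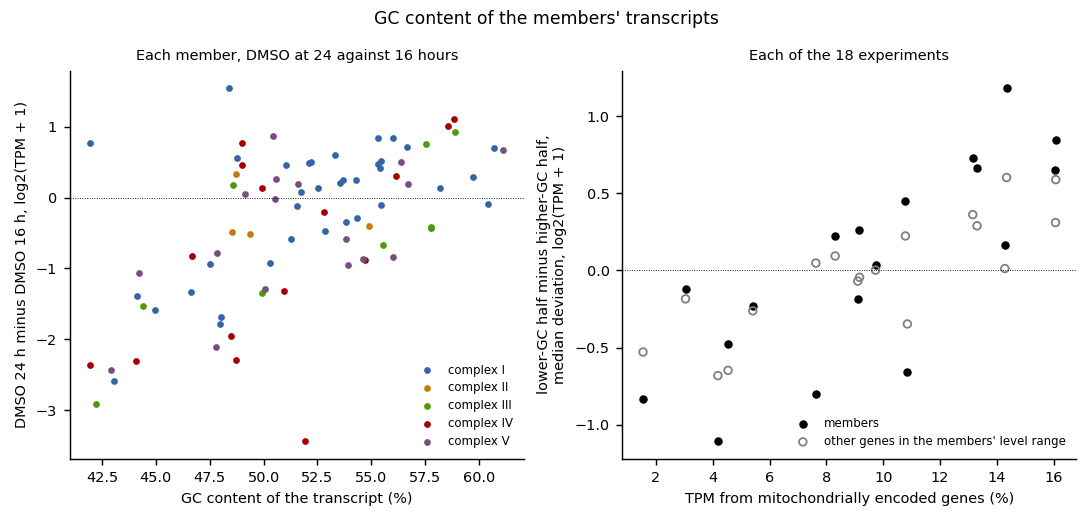
Left, difference of each member between DMSO at 24 h and at 16 h against the GC content of its transcript, colored by complex. Right, for each of the 18 experiments, the gap between the lower-GC and the higher-GC members (filled) and of other genes with similar levels (open) against the percent of TPM from mitochondrially encoded genes. The filled points run from -1.11 to 1.18, and those below 6% on the horizontal axis all lie below 0.

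Members of 1 complex varied together little more than members of different complexes, or less. Across 169 cells, with each experiment centred on its own mean, the median correlation of a member with the mean of the others was 0.29, ranging from -0.46 (Cox5a) to 0.68 (Atp5j2), against 0.07 for other genes with the members' mean. Within complex I the median correlation of pairs was 0.09 and with other complexes 0.06, within complex II 0.12 and 0.09, within complex IV 0.00 and 0.05, within complex III 0.01 and 0.07, and within complex V 0.08 and 0.07. The members' mean per cell also went with the number of genes detected (0.60), and cells of 1 library share its depth and base composition, so these correlations are given as a description. Cox5a, Atp5d (-0.42), Cox6a1 (-0.35), Ndufb6 (-0.34) and Uqcrc1 (-0.33) had the most negative values, and all 5 are among the 10 that stood higher in both low experiments.

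Other genes of the pathway were followed in 10 lists, with 104 genes tested, and none was called in any comparison. The lists hold the remaining nuclear subunits, assembly factors, coenzyme Q synthesis, transcription regulators, the citrate cycle and the 13 mitochondrially encoded subunits. At an unadjusted p under 0.05 stood 10 higher and 1 lower at E4.0 against E3.25 (10.6%, all genes 12.9%), and 6 lower and none higher with LY at 24 h (5.77%, all genes 5.27%). In DMSO at 16 h against E3.25 there were 23 higher and none lower (22.1%, all genes 13.7%). The median difference of the 104 genes was 0.54, and 0.51 without E3.25 experiment 2. In DMSO at 24 against 16 h there were 21 lower and none higher (20.2%, all genes 10.9%), of which 12 were mitochondrially encoded. Without DMSO at 24 h experiment 1 there were 9, of which 5 were mitochondrially encoded, and the median of those 13 genes went from -3.29 to -2.27. Their median level was 11.61, 12.24 and 11.78 at 16 h and 5.46, 9.21 and 8.52 at 24 h, so the first 24 h experiment was the lowest and the groups did not overlap. With LY at 24 h the mitochondrially encoded subunits had medians of 2.11, -0.88 and -0.26 on the 3 dates, in opposite directions. Over the dates their median was -0.01. It was -1.31 without DMSO at 24 h experiment 1, and 0.16 without LY experiment 1. The 15 assembly factors of complex I had a median of -0.83 in that comparison, the 23 of complex IV -0.68, and the 11 genes of coenzyme Q synthesis -0.43, which without LY experiment 1 were -0.44, -0.42 and 0.10. Among assembly factors of complex III, Uqcc3 stood lowest with LY at 24 h (-2.17), and among those of complex V, Fmc1 (-2.95), each at an unadjusted p under 0.05 and an adjusted p of 0.899.

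Some members share sequence with near-identical copies, so their values are uncertain. Of the 81, 19 have a pseudogene copy with at least 95% identity over 200 bases or more, less for short RNAs, and in 6 the copies hold over 10% of the summed TPM. For Ndufb4 the copy Ndufb4c, itself a member, held 60.95% (198 TPM against 127), for Ndufa12 the copy held 39.3%, for Cox7a2l 26.5%, for Ndufs5 15.4%, for Atp5g1 13.2% and for Atp5l 11.0%. How the counting divided reads between such copies was not tested.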

How the data were processed

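Single cells were measured by RNA-seq; depth in reads is unknown, since the table holds no counts. Per the labels, mRNA was reverse-transcribed from the 3′ end and amplified, cDNA above 500 bp was recovered, and Nextera XT libraries were sequenced in 2 runs. The authors deposited TPM values for 55421 genes and 92 spike-ins. Per the submitters' processing notes, bcl2fastq 2.20.0, cutadapt 2.9, STAR 2.7.9a, RSEM 1.3.3 and build mm10 were used; the gene annotation was not given in the sources used here. Of 186 labelled samples, 170 columns matched by title, and 16 samples were not analysed here. In 1 pair of libraries of the same cell name r was 0.824, above that with any other cell of the experiment (0.783), and they were averaged, leaving 169 cells. Another such pair lay in LY at 24 h experiment 1. Its r was 0.594, below the highest with another cell (0.724), and both libraries were kept as separate cells. Whether they are the same cell is unknown.

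For each of 18 experiments, log2(TPM + 1) was averaged over cells. limma 3.58.1 (R 4.3.3, trend) was fitted to all 7 groups (11 residual degrees of freedom) and 11680 genes, with Benjamini-Hochberg adjustment and a threshold of 0.05; a difference on this scale understates the change of low genes. It was tested on simulated data. LY and DMSO experiments share collection dates in the labels; same-date deviations correlated at 0.393, 0.121 and 0.317 at 16 h and 0.231, 0.12 and 0.0732 at 24 h, and a fit with the date as block was an alternative. Values without experiments that stand apart were added after the data were seen.

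Lengths and GC content came from GENCODE M21, copies from blastn 2.17.0. All 81 members matched, 1 (Atp5md) through its older symbol. Members named were the 3 highest and the smallest p of each complex, fixed roles, and names failing the filter; others were named after their values were seen. The values of 1 member are not reported here; it is counted in all totals. The members, lists and tests were chosen with earlier results of these data known.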

Additional observations from a re-analysis of the deposited data

Results flagged for a closer look

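Cox8a was the one member for which LY and DMSO stood in opposite orders at the 2 culture times on every shared date. At 16 h LY was higher on all 3 dates, by 0.18, 0.73 and 0.42 on the log2(TPM + 1) scale. At 24 h it was lower on all 3, with LY minus DMSO of -2.97, -0.84 and -0.86. The interaction, which tests this difference itself, was -2 (SE 0.84, limma unadjusted p = 0.0271, adjusted p = 1), and -1.38 without LY at 24 h experiment 1. The difference did not pass the adjusted threshold. Cox8a was picked out of the 81 members by this pattern, so its unadjusted p is not independent of that choice. Of all genes, 5.34% were higher with LY on all 3 dates at 16 h, and 22.4% were lower on all 3 at 24 h. For the reverse order these shares were 35.7% and 6.33%. The share of all genes with both is not given here, and whether 1 such member exceeds it was not tested.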

How the results depend on the processing

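Each comparison was repeated with pseudocounts of 0.1 and 10, a filter at 50% of cells and none, the log2 of the mean TPM, quantile normalization, TPM rescaled without mitochondrial genes and spike-ins, genes detected as a covariate, weights by cell number, only the groups compared, each sequencing run and each experiment left out. Leaving out both low experiments, and keeping the 147 cells with 5000 or more genes, were added after the data were seen. With a threshold of 1.5 times, 173 of 177 repeats kept the count of called members at 0, and 171 of 177 kept the median difference within the spread between experiments (SD 0.745). That spread includes the low experiments, so it also counts as kept the falls from 0.66 to 0.03 (E3.75 against E3.25) and from -0.80 to -0.33 (LY at 24 h) when they were left out.

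The exceptions by that measure concerned E4.0 and DMSO at 16 h against E3.25. The called members became 7 for E4.0 in sequencing run 2 alone, with few cells in E4.0 experiment 2. They became 4 for DMSO at 16 h when only the groups compared were fitted. The members' median became 0.108 for DMSO at 16 h with the log2 of the mean TPM. With both low experiments left out it was 0.095 for E4.0 and 0.1001 for DMSO at 16 h. Leaving out 1 experiment at a time gave 0 to 4 called members and medians of 0.095 to 1.55 for E4.0, and 0 to 3 called members and medians of 0.1001 to 1.669 for DMSO at 16 h, with the extremes set by the E3.25 experiments. Without 1 of them E3.25 holds a lone experiment, which limma assumes to vary like the other groups. The cause of these changes was not tested.

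With the collection date as a replicate block, 0 members were called in either LY comparison or in the interaction, as without it, and the medians stayed at -0.19, -0.80 and -0.61. The block raised the members at an unadjusted p under 0.05 from 1 to 2 at 16 h, from 15 to 27 at 24 h and from 3 to 10 in the interaction, while the share of all genes rose from 5.49% to 12.1%, from 5.27% to 11.4% and from 2.49% to 6.05%. Groups of 2 or 3 experiments limit what could be detected, and depth in reads is unknown.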
